A study of Homo sapiens with 36 samples.

Results

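The RNAs of 8 genes were examined, each encoding a protein with a domain that binds the C-terminal repeat domain (CTD) of RNA polymerase II (RNAPII), or a protein named as an SR-related CTD-associated factor: PCF11, RPRD1A, RPRD1B, RPRD2, CHERP, U2SURP, SCAF1 and SCAF11. The genes were chosen by the proteins they encode and not by their clusters, though earlier results of these data were known. PAR-CLIP clusters were assigned to a gene when their midpoint lay on its strand and within its GENCODE 44 gene body on GRCh38. Of 278185 clusters in 18 lists, 540 (0.194%) met this rule, and they merged into 158 of 82455 regions.

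In PAR-CLIP, cells take up 4-thiouridine (4SU), ultraviolet light joins the labelled RNA to bound protein, and each joined base is read as a T-to-C change. A cluster is a short stretch of RNA in which such reads accumulate. The samples came from Flp-In T-REx HEK293 cells, a human embryonic kidney line, labelled WT for CRISPR status and expressing FLAG-tagged SCAF4 or SCAF8 after overnight induction with, by the labels, 100 ng/mL doxycycline. The untagged parental line was the control, for which the labels name no doxycycline, whereas the study's methods give a higher dose and include the parental cells, so the dose and the treatment of the control are not settled. All cells received 100 µM 4SU overnight, a pulse of 500 µM 4SU for 2 h and 2000 J/m2 of light at 365 nm. FLAG immunoprecipitates (IP) and inputs, taken from the same extracts before IP, gave 6 groups of 3 lists, and each list joined the soluble and chromatin libraries of 1 replicate. The tagged proteins were induced from an integrated construct in cells that also held their own SCAF4 and SCAF8.

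The list sizes differed widely. SCAF4 IP lists held 18991 to 54404 clusters, SCAF8 IP lists 18287 to 41502, and control IP lists 1621 to 9638. Inputs held 4793 to 11715 clusters for SCAF4, 9008 to 10361 for SCAF8 and 4567 to 12493 for the control. A gene level is therefore given as clusters per 10000 clusters of the list. In the control IP list of replicate 3, a single cluster amounts to 6.17 on that scale. A cluster is a call and not a read count, so more RNA of a gene and more binding per RNA cannot be told apart.

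The CTD is a long tail of repeated heptapeptides, and its serines are phosphorylated in a changing pattern as RNAPII moves along a gene. CTD-interacting domains (CIDs) read this pattern and bring RNA processing and termination factors to the transcribing polymerase. SCAF4 and SCAF8 have such a domain together with an RNA recognition motif. The question here was where SCAF4 and SCAF8 crosslinked to the RNAs of other proteins tied to the CTD.

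The SCAF4 and SCAF8 IP lists together held 374 of the clusters, the 3 control IP lists 18 and the 9 inputs 148. In the SCAF IP lists 152 clusters (40.6%) had their midpoint in coding sequence, 38 (10.2%) in a 3′UTR and 176 (47.1%) in an intron. In the inputs 26 (17.6%) were coding, 29 (19.6%) lay in a 3′UTR and 93 (62.8%) were intronic. Of the 18 control IP clusters 8 (44.4%) were coding, 3 (16.7%) lay in a 3′UTR and 7 (38.9%) were intronic. The coding share was thus higher and the 3′UTR share lower in SCAF IP than in the inputs. The few control IP clusters had a coding share as high as that of SCAF IP, so this shift was not particular to the SCAF IP lists. The genes contributed unevenly.

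**Figure D1:**
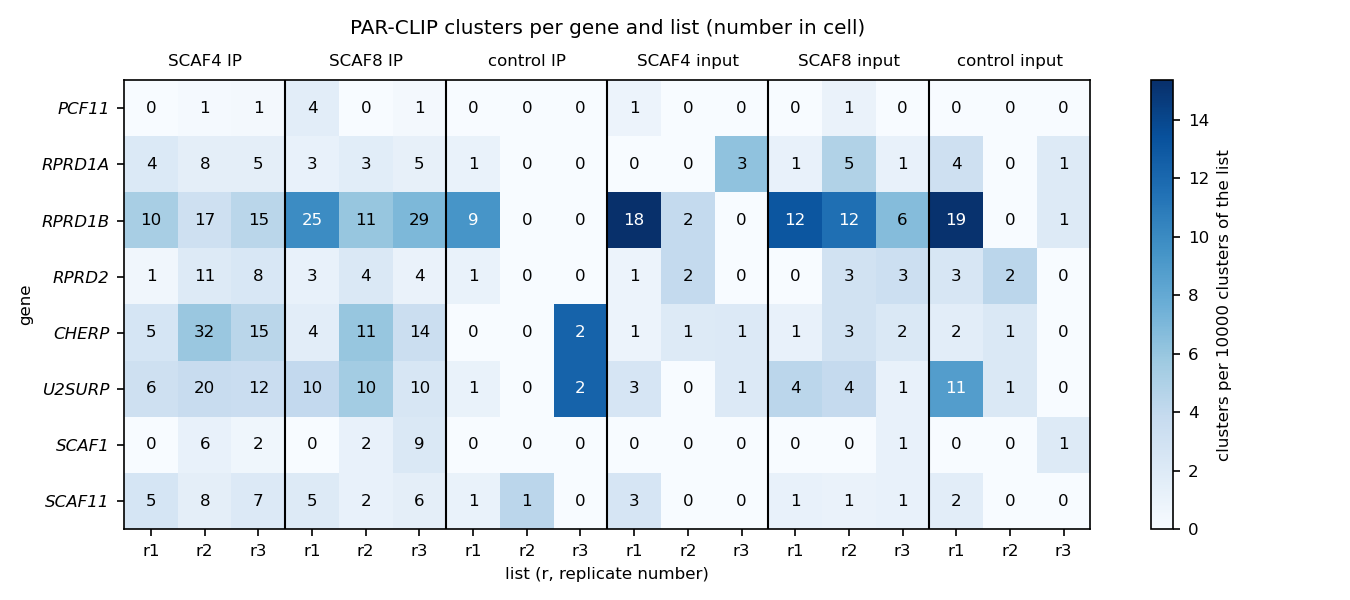
Number of PAR-CLIP clusters of each gene (rows) in each of the 18 lists (columns, r for replicate), with the colour giving clusters per 10000 clusters of the list. Every gene but PCF11 and SCAF1 had clusters in all 6 SCAF IP lists, and PCF11 had at most 4 in any list. The dark control IP cells of CHERP and U2SURP stand for 2 clusters each in a list of 1621, and that of RPRD1B for 9 in a list of 9638.

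Among the splicing factor genes, the clearest pattern was in CHERP, whose protein carries a CID and associates with the U2 snRNP (chr19:16517894-16542437, minus strand, 17 exons, ENSG00000085872.15). CHERP had 5, 32 and 15 clusters in the SCAF4 IP lists and 4, 11 and 14 in the SCAF8 IP lists. Its inputs had 1, 1 and 1 for SCAF4, 1, 3 and 2 for SCAF8, and 2, 1 and 0 for the control, while the control IP lists had 0, 0 and 2. Relative to list size this was 3.99 ± 1.78 clusters per 10000 in SCAF IP and 1.85 ± 0.757 in the SCAF inputs (SD, n = 6 each). The ranges overlapped, from 1.59 to 6.02 in IP and from 0.854 to 2.90 in the inputs.

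The intronic CHERP clusters separated SCAF IP from the inputs. SCAF4 IP lists had 2, 18 and 6 intronic clusters and SCAF8 IP lists 1, 3 and 6, whereas each of the 9 inputs had 0. The control IP list of replicate 3 had 1, which is 6.17 per 10000 in that short list and above every SCAF IP list, and the other control IP lists had 0. All 20 intronic CHERP regions came with at least 1 SCAF IP list and no input, but most of them were in only 1 SCAF IP list. Such regions were common in IP lists longer than the inputs. Regions with SCAF IP and neither input nor control IP made up 65.1% of all 82455 regions and 53.8% of the 158 regions of these genes. The 36 intronic IP clusters gave 1.60 ± 0.972 per 10000 (0.397 to 3.31, n = 6). This mean was 2.68 times the limit of 3 clusters over the 50137 clusters of the 6 SCAF inputs, which is 0.598 per 10000. That limit covers counting error in the inputs only and not the spread of the IP lists, the lowest of which lay below it. The exonic level was 2.38 ± 1.13 per 10000 in IP and 1.85 ± 0.757 in the inputs, so IP and inputs overlapped in exons. Part of CHERP is shared on the same strand with a readthrough gene (ENSG00000141979) and RN7SL146P, and the intron 2 region within RN7SL146P was found in 1 SCAF4 IP list.

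U2SURP encodes another CID protein of the U2 snRNP, with an RNA recognition motif and a SURP domain (chr3:142964497-143060725, plus strand, 28 exons, ENSG00000163714.18). It had 6, 20 and 12 clusters in SCAF4 IP and 10, 10 and 10 in SCAF8 IP. Its inputs had 3, 0 and 1 for SCAF4, 4, 4 and 1 for SCAF8, and 11, 1 and 0 for the control, and the control IP lists had 1, 0 and 2. The level was 3.70 ± 1.02 per 10000 in SCAF IP, from 2.41 to 5.47, and 2.33 ± 1.65 in the SCAF inputs, from 0 to 4.37 (n = 6 each), so the ranges overlapped. The coding exons carried 39 of the 68 IP clusters but 5 of the 25 input clusters, and introns carried 21 and 14. Exonic clusters came to 2.61 ± 0.904 per 10000 in IP, from 1.93 to 4.38, and to 1.18 ± 0.761 in the inputs, from 0 to 2.09, so the ranges overlapped between 1.93 and 2.09. PAQR9-AS1 overlaps U2SURP on the same strand.

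Of the 158 regions, 7 had clusters in at least 5 of the 6 SCAF IP lists and in no input and no control IP list (4.43%, beside 2.51% of all regions), and all of them lay in RPRD1B, CHERP or U2SURP. They are shown because they are the places where recurrence in IP came without signal in the inputs. Each line gives 100 bases of the transcribed strand around the region's midpoint (GRCh38). Capitals mark CGG or CGA, then CAG with a C or a G on each side, and CTCC or CACC, which the study names among the forms enriched at its sites, written here as DNA.
RPRD1B exon 3, chr20:38048358-38048457, plus strand: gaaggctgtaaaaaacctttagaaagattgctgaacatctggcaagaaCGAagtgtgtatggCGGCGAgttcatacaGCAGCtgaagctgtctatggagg
RPRD1B exon 4, chr20:38057535-38057634, plus strand: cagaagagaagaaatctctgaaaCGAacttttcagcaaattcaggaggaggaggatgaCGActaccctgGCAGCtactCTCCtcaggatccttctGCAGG
RPRD1B exon 6, chr20:38066123-38066222, plus strand: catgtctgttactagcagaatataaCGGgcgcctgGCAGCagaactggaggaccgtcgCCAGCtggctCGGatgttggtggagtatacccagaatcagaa
CHERP intron 9, chr19:16527348-16527447, minus strand: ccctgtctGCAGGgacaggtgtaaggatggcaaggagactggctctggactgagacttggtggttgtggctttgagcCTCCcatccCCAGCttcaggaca
CHERP exon 15, chr19:16520199-16520298, minus strand: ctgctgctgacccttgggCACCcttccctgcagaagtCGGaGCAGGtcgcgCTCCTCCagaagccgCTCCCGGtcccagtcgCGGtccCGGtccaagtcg
U2SURP exon 11, chr3:143022530-143022629, plus strand: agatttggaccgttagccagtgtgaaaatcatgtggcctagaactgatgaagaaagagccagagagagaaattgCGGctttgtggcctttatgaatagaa
U2SURP exon 24, chr3:143043104-143043203, plus strand: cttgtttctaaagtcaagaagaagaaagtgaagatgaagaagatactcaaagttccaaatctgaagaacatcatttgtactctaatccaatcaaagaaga
The CHERP exon 15 window held 67 exonic bases and the U2SURP exon 24 window 87, with intron before the exon in each, and the CHERP intron 9 window lay wholly in the intron. The CHERP exon 15 window is the centre of a region of 474 bases joined from overlapping clusters and touching 2 exons. By cluster midpoint, exon 15 itself was in 1 SCAF IP list and exon 14 in 3, so the 5 lists belong to the joined region. The windows were unlike in composition. CHERP exon 15 had 69 G or C bases and 9 motif matches, while U2SURP exon 24 had 32 G or C bases and no match.

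The other recurrent CHERP regions lay in exon 5 (chr19:16532491-16532761, 6 SCAF IP lists, 1 input, 1 control IP list), over the start of exon 17 (chr19:16518960-16519559, 6 SCAF IP lists, 5 inputs, 1 control IP list) and in the 3′UTR (chr19:16518202-16518904, 6 SCAF IP lists, 2 inputs). Exon 17 was thus common to IP and inputs, while intron 9 was absent from the inputs. In U2SURP, exon 16 (chr3:143028429-143028648) was found in 6 SCAF IP lists, 2 inputs and 2 control IP lists, exon 8 (chr3:143020530-143020723) in 5 SCAF IP lists and 2 inputs, and the 3′UTR (chr3:143056353-143056781) in 6 SCAF IP lists and 5 inputs. No U2SURP cluster lay upstream of the first exon of the isoform with the longest summed exons.

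**Figure D2:**
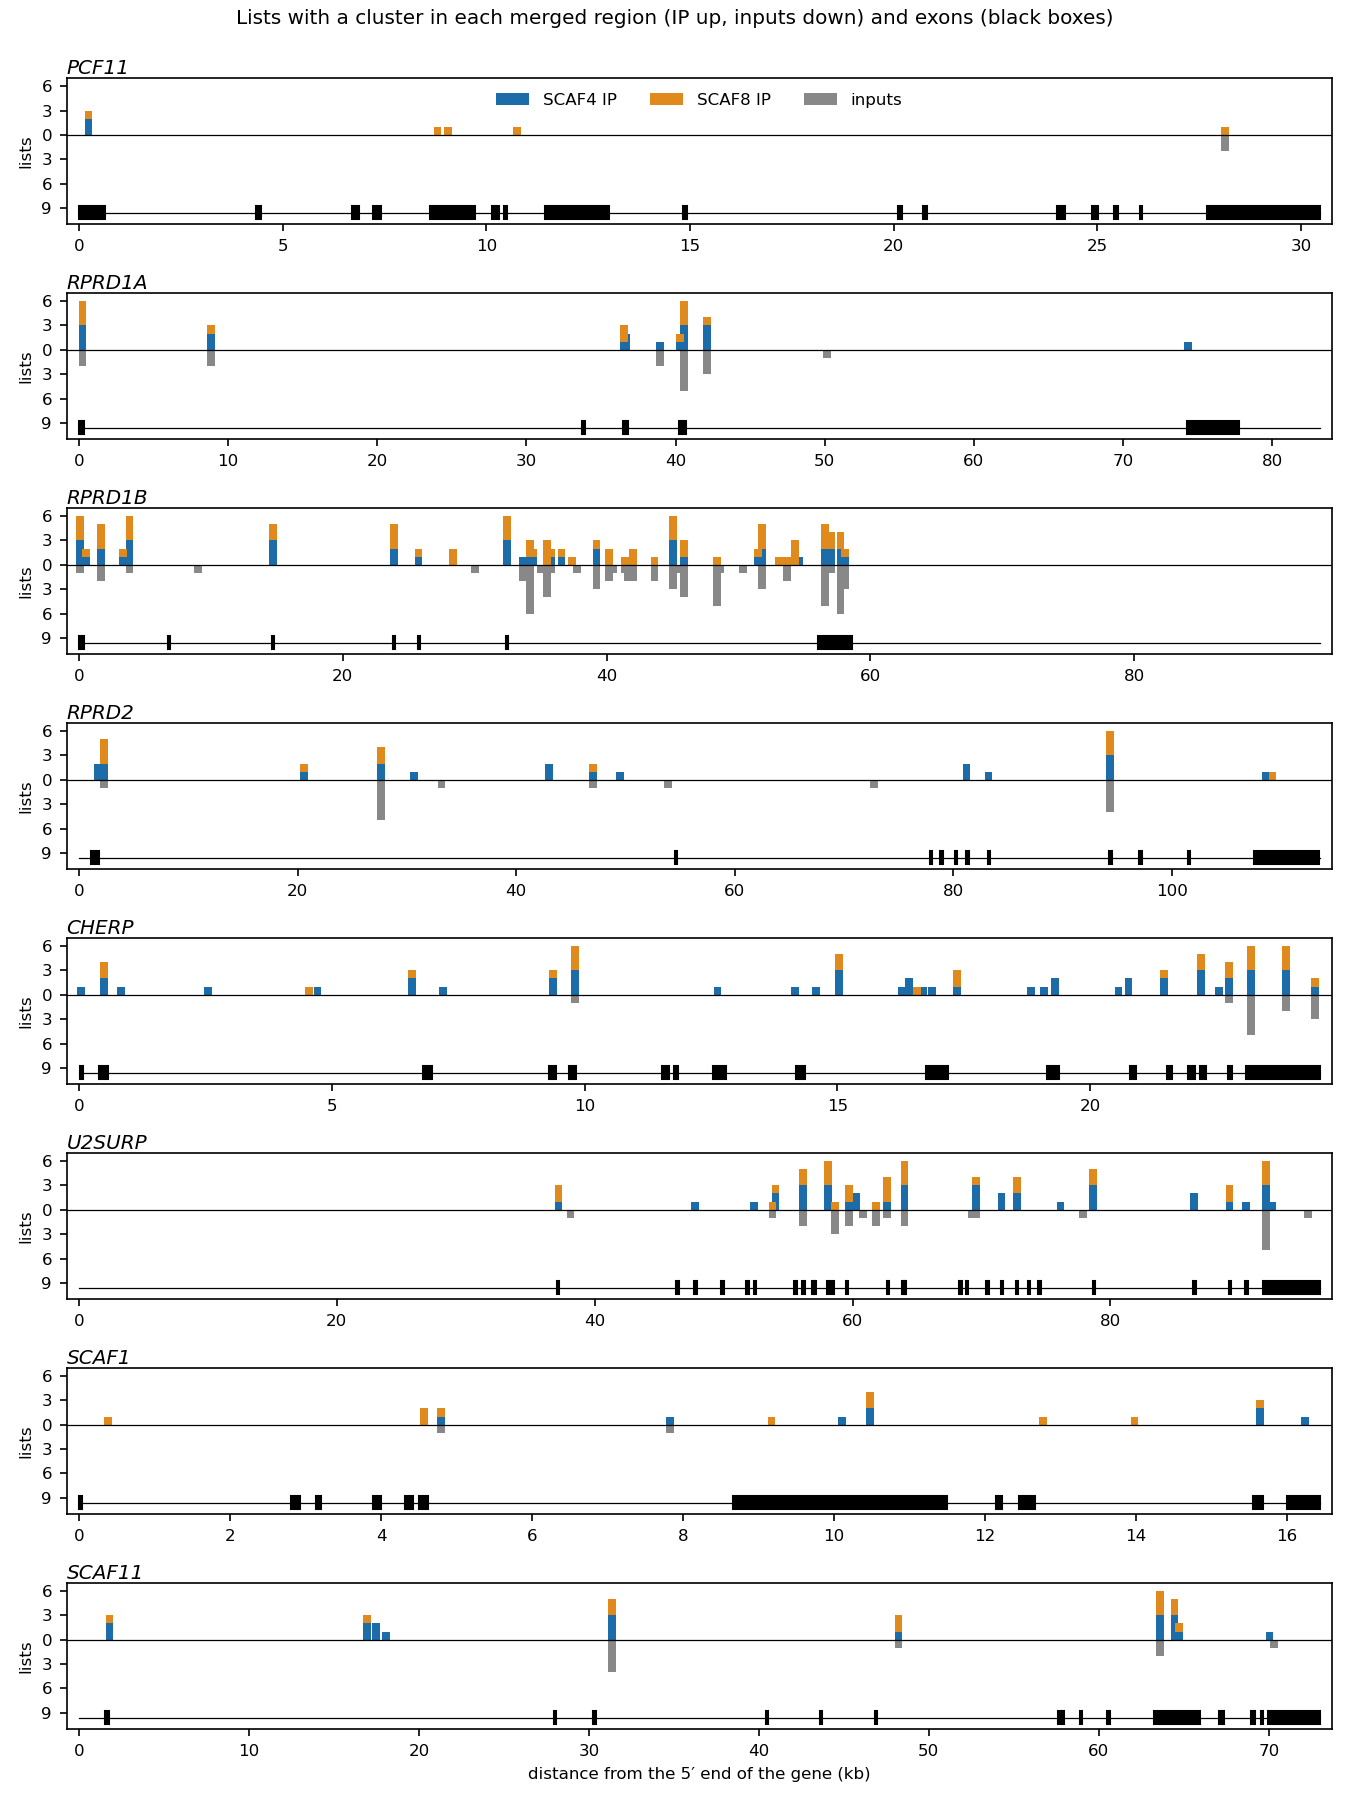
Number of lists with a cluster in each merged region (SCAF4 IP and SCAF8 IP stacked upward, of 6; 9 inputs downward) along each gene, in kb from its 5′ end, with exons as black boxes. CHERP shows intronic IP bars with no input bars below them, while in RPRD1B IP and input bars crowd the last intron and exon.

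The RPRD genes encode CID proteins that form dimers and, for RPRD1A and RPRD1B, recruit the CTD phosphatase RPAP2 to RNAPII. RPRD1B (chr20:38033725-38127780, plus strand, 7 exons, ENSG00000101413.12) held the most clusters of the 8 genes, 186, but many were input clusters. It had 10, 17 and 15 clusters in SCAF4 IP and 25, 11 and 29 in SCAF8 IP. Its inputs had 18, 2 and 0 for SCAF4, 12, 12 and 6 for SCAF8, and 19, 0 and 1 for the control, and its control IP lists had 9, 0 and 0. The level was 5.96 ± 2.35 per 10000 in SCAF IP and 8.44 ± 5.91 in SCAF inputs (n = 6 each), the inputs spreading from 0 to 15.4.

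Within RPRD1B, position set IP and inputs apart more than number did. Coding sequence held 22 IP clusters and 1 input cluster, or 1.30 ± 0.572 per 10000 in IP, with a lowest value of 0.551, and 0.142 ± 0.349 in SCAF inputs, with a highest value of 0.854. Intron 6 held 47 IP and 49 input clusters in 29 regions, 22 of them with SCAF IP and 22 with inputs. The SCAF IP lists together held 192335 clusters and the inputs 72277, so the share of intron 6 was lower in IP. Intron 1 held 20 IP clusters in all 6 lists and 3 input clusters in 2 lists. Exons 3, 4 and 6 were in 5, 5 and 6 SCAF IP lists with no input and no control IP list. The regions most frequent in inputs were in intron 6 (chr20:38067830-38068053, 6 inputs, 3 SCAF IP lists, and chr20:38081922-38082300, 5 inputs, 1 SCAF IP list) and in the 3′UTR (chr20:38091345-38091579, 6 inputs, 4 SCAF IP lists, and chr20:38090173-38090417, 5 inputs, 5 SCAF IP lists). Of these 4, all but chr20:38081922-38082300 also had 1 control IP list. A joined region over exon 1 (chr20:38033521-38034128) had 6 SCAF IP lists, 1 input and 1 control IP list. This region of 608 bases was 58.1% exonic and began upstream of the gene start. By cluster midpoint, exon 1 itself was in 5 SCAF IP lists. Of the named intronic regions, chr20:38035002-38035739 and chr20:38037444-38037672 in intron 1 had 5 and 6 SCAF IP lists with 2 and 1 inputs, the second also with 1 control IP list. In intron 6, chr20:38078622-38078841 and chr20:38085378-38085693 had 6 and 5 SCAF IP lists, each with 3 inputs, the first also with 1 control IP list.

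RPRD1A (chr18:35984387-36067576, minus strand, 7 exons, ENSG00000141425.18) had fewer clusters. There were 4, 8 and 5 in SCAF4 IP and 3, 3 and 5 in SCAF8 IP, against 0, 0 and 3 in SCAF4 inputs, 1, 5 and 1 in SCAF8 inputs, 4, 0 and 1 in control inputs and 1, 0 and 0 in control IP. The SCAF IP lists were even, at 1.51 ± 0.338 per 10000, and lay inside the range of SCAF inputs, 0 to 6.26. Exon 1 (chr18:36067224-36067471) was found in 6 SCAF IP lists and 2 inputs. Exon 6 (chr18:36026910-36027077) was found in 6 SCAF IP lists, 5 inputs and 1 control IP list.

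RPRD2 (chr1:150363091-150476566, plus strand, 11 exons, ENSG00000163125.16) had 1, 11 and 8 clusters in SCAF4 IP and 3, 4 and 4 in SCAF8 IP. Its inputs had 1, 2 and 0 for SCAF4, 0, 3 and 3 for SCAF8, and 3, 2 and 0 for the control, with 1, 0 and 0 in control IP. The levels overlapped, at 1.54 ± 0.748 per 10000 in SCAF IP and 1.83 ± 1.75 in SCAF inputs. Exon 8 (chr1:150457303-150457569) was in 6 SCAF IP lists, 4 inputs and 1 control IP list. Near the start of intron 1, chr1:150365224-150365526 was in 5 SCAF IP lists and 1 input, while chr1:150390626-150390766, farther into the same intron, was in 4 SCAF IP lists and 5 inputs.

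The 3 RPRD genes share a pair of neighbouring internal exons of equal length, 127 and 176 bases, in which clusters could be compared between paralogs. The longer exon had clusters in 6 SCAF IP lists and 0 inputs in RPRD1B, in 6 SCAF IP lists and 5 inputs in RPRD1A, and in 1 SCAF IP list and 0 inputs in RPRD2. The shorter exon had clusters in 2 SCAF IP lists and no input in each gene. The exons are printed whole so that the paralogs can be read against each other, with capitals for bases identical in all 3 genes.
RPRD1A exon 5, chr18:36027184-36027310, minus strand: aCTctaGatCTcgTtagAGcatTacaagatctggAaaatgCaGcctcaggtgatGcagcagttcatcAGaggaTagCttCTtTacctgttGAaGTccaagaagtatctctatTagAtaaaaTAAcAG
RPRD1B exon 5, chr20:38059394-38059520, plus strand: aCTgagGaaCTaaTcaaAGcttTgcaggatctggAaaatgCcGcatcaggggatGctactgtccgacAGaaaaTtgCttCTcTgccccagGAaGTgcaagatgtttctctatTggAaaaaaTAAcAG
RPRD2 exon 6, chr1:150444251-150444377, plus strand: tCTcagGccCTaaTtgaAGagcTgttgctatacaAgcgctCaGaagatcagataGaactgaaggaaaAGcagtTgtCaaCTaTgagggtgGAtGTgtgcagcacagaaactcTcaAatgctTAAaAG
RPRD1A exon 6, chr18:36026900-36027075, minus strand: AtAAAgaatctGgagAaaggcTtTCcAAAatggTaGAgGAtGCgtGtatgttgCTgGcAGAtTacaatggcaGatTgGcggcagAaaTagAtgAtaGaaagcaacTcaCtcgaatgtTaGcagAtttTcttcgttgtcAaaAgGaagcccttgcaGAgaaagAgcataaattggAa
RPRD1B exon 6, chr20:38066081-38066256, plus strand: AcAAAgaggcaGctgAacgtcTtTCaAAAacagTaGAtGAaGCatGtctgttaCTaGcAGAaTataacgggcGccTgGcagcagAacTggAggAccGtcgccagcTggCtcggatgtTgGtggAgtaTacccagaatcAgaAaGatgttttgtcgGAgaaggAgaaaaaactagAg
RPRD2 exon 7, chr1:150446226-150446401, plus strand: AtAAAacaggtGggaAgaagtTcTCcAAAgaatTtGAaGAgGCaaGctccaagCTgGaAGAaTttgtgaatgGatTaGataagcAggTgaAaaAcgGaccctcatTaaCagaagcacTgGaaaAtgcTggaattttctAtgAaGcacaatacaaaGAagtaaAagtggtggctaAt
Of the 127 bases 31 were identical in all 3 genes, and of the 176 bases 48. RPRD1A and RPRD1B were identical at 73.2% of bases in the shorter exon, with a longest identical run of 14, and at 63.1% in the longer exon, with a longest run of 6. RPRD2 was identical to either at 31.5% to 39.8%. Whether any read was placed at the wrong paralog was not tested.

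PCF11, a subunit of cleavage factor II whose CID is the best known of the group (chr11:83156988-83187451, plus strand, 16 exons, ENSG00000165494.12), had 9 clusters in all. There were 0, 1 and 1 in SCAF4 IP, 4, 0 and 1 in SCAF8 IP, 1 in 1 SCAF4 input, 1 in 1 SCAF8 input, and 0 in all control lists. With a mean of 0.5 clusters per list it was below the minimum for the test. The best shared region lay in the 5′UTR of exon 1 (chr11:83157148-83157297) and was found in 2 SCAF4 IP lists, 1 SCAF8 IP list and no input. The 2 input clusters lay in the 3′UTR.

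SCAF1 and SCAF11 encode serine- and arginine-rich CTD-associated factors. SCAF1 (chr19:49642209-49658642, plus strand, 11 exons, ENSG00000126461.15) had 0, 6 and 2 clusters in SCAF4 IP and 0, 2 and 9 in SCAF8 IP. Both replicate 1 lists were at 0, while 1 SCAF8 input and 1 control input had 1 cluster each and the control IP lists had 0. Of its 19 IP clusters 12 were coding, and neither input cluster was exonic. A region of exon 7 (chr19:49652445-49652941) was in 2 SCAF4 and 2 SCAF8 IP lists and no input.

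SCAF11 (chr12:45919131-45992120, minus strand, 15 exons, ENSG00000139218.18) had 5, 8 and 7 clusters in SCAF4 IP and 5, 2 and 6 in SCAF8 IP. Its inputs had 3, 0 and 0 for SCAF4, 1, 1 and 1 for SCAF8, and 2, 0 and 0 for the control, and the control IP lists had 1, 1 and 0. The level was 1.78 ± 0.553 per 10000 in SCAF IP and 0.955 ± 0.943 in SCAF inputs. Its long exon 11 held 2 recurrent regions, chr12:45928381-45928616 in 6 SCAF IP lists and 2 inputs, and chr12:45927559-45927781 in 5 SCAF IP lists, no input and 1 control IP list. An intron 3 region (chr12:45960689-45960791) was in 5 SCAF IP lists and 4 inputs.

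Across the 8 genes, 26 of 158 regions (16.5%) were in at least 5 SCAF IP lists, against 13.4% of all regions of the genome, and 8 (5.06%) were in at least 5 inputs, against 5.02%. Both proteins had a cluster in 68 regions (43.0%, against 38.8% of all regions), SCAF4 alone in 44 (27.8%, against 33.0%) and SCAF8 alone in 27 (17.1%, against 20.9%). Of the 26 recurrent regions 15 were coding, 7 intronic, 3 in a 3′UTR and 1 in a 5′UTR. Internal exons held 35.0% of SCAF IP clusters and 12.2% of input clusters in these genes, beside 40.3% and 26.6% over all protein-coding genes of at least 3 exons. Last exons held 12.8% and 23.0%, beside 16.9% and 27.2%. The genes thus stood in the same order as the whole, with more intronic clusters in both kinds of list (47.1% in IP and 62.8% in inputs, beside 37.1% and 42.5%). In the control IP lists, with 18 clusters in these genes, internal exons held 38.9%, beside 39.05% over all protein-coding genes of at least 3 exons. A higher internal-exon share than in inputs was therefore not particular to SCAF IP. RPRD1B held 69 of the 176 intronic IP clusters and 54 of the 93 intronic input clusters, and without it the intronic shares were 40.1% and 50.0%. Of 96 internal exons in the chosen isoforms, 37 (38.5%) had a SCAF IP cluster, 8 (8.33%) an input cluster and 29 (30.2%) a SCAF IP cluster without an input cluster. Over 92812 internal exons of the 8891 protein-coding genes of at least 3 exons with any cluster, the shares were 25.1%, 5.75% and 19.6%, in IP lists that were longer than the inputs. U2SURP had 12 of its 26 internal exons marked in IP, CHERP 9 of 15 and RPRD1B 4 of 5, but PCF11 1 of 14 and SCAF11 1 of 13.

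**Figure D3:**
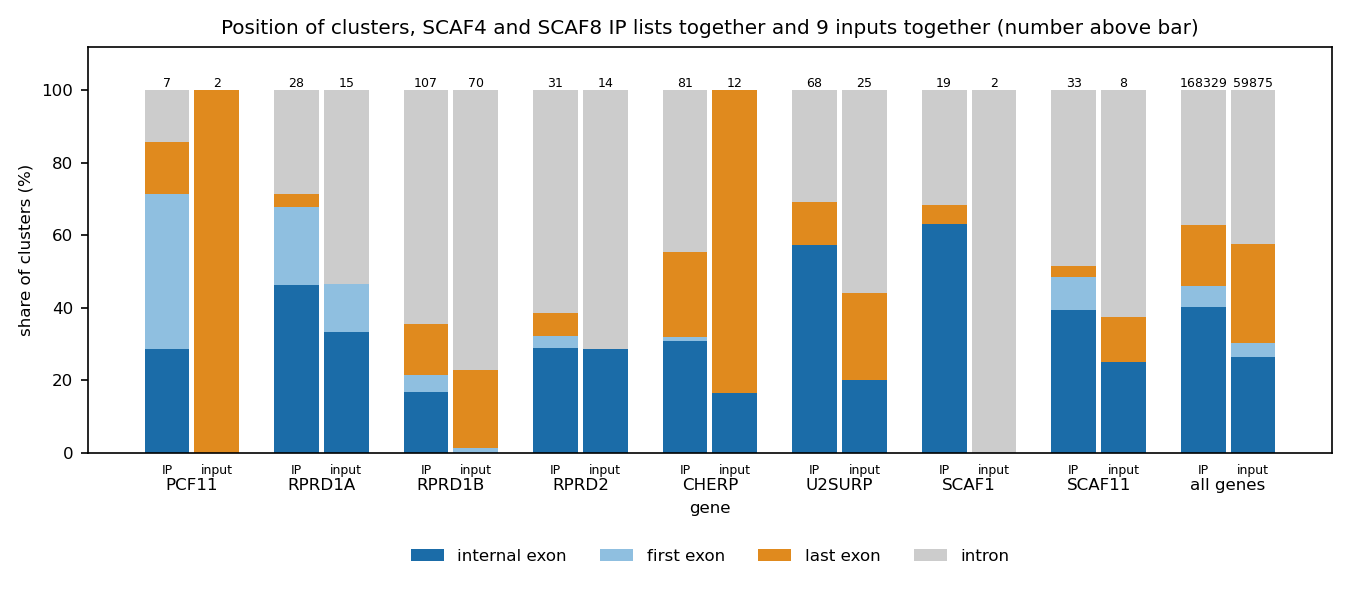
Share of clusters (%) in internal exons, first exons, last exons and introns, for the 6 SCAF IP lists together and the 9 inputs together, by gene and over all protein-coding genes of at least 3 exons, with the number of clusters above each bar. U2SURP and RPRD1B show larger internal-exon shares in IP, CHERP shows introns in IP but none in its 12 input clusters, and the PCF11 and SCAF1 input bars rest on 2 clusters each. Control IP lists are not drawn.

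The levels were then compared between groups with limma on log2 clusters per 10000, with a pseudocount of 0.5 clusters and Benjamini-Hochberg adjustment over all genes tested. Of the 8 genes 7 reached the minimum mean of 1 cluster per list. For SCAF4 IP against its inputs 0 of 7 were called, beside 10.8% of 4160 genes, and the log2 differences ran from -0.30 in SCAF1 to 0.92 in CHERP, beside a median of -0.22 over all genes. For SCAF8 IP against its inputs 0 of 7 were called, beside 0.0721% of genes, and differences ran from -0.68 in RPRD1A to 0.45 in CHERP, beside a median of -0.14. In both comparisons 0 of 7 had an unadjusted p under 0.05. The standard errors of 0.59 to 0.86 were as large as most of these differences.

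These directions and their order depended on the pseudocount, because 0.5 clusters weighs more in a short list. With a pseudocount scaled to the list, the SCAF4 differences ran from 0.58 in RPRD2 to 1.80 in SCAF11, beside a median of 0.70, and SCAF1 turned to 1.21. The SCAF8 differences ran from -0.41 in RPRD1B to 0.98 in SCAF1, beside a median of 0.28, and RPRD2 turned from -0.32 to 0.12. Over all genes the calls turned from 60 higher and 391 lower to 476 higher and 73 lower for SCAF4, and from 3 higher and 0 lower to 137 higher and 2 lower for SCAF8.

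SCAF4 IP and SCAF8 IP were also set against each other, to ask whether the related proteins marked these RNAs to different extents. In limma 0 of 7 genes were called, beside 0.216% of genes, and 0 had an unadjusted p under 0.05. The widest difference was in RPRD1B, -0.83 ± 0.75 (SE) in log2, SCAF8 IP being the higher. The difference between the SCAF4 and SCAF8 effects over their inputs was called in 0 of 4160 genes by limma, and 0 of the 7 had an unadjusted p under 0.05. With standard errors of 0.59 to 0.86 in the direct comparison and 0.83 to 1.22 for the difference of effects, a missed threshold does not show that the proteins marked these genes alike.

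Against the control IP, which both proteins share, limma called 0 of 7 genes for SCAF4 (16.7% of all genes) and 0 of 7 for SCAF8 (16% of all genes), with 0 at an unadjusted p under 0.05 in each. The direction of these differences depended on the pseudocount too. With the fixed pseudocount the members ran from -1.30 to 0.73 for SCAF4 and from -0.91 to 0.93 for SCAF8, beside medians over all genes of -0.76 and -0.81. With the scaled pseudocount they ran from 0.88 to 2.17 and from 0.50 to 2.96, beside medians of 1.27 and 1.16. The fixed pseudocount gave 3 genes higher and 691 lower for SCAF4 and 12 higher and 652 lower for SCAF8, and the scaled one 794 higher and 238 lower, and 564 higher and 189 lower.

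Exonic and intronic clusters were compared separately, pooling the SCAF4 and SCAF8 contrasts with their inputs. Of 5 genes with enough exonic clusters limma called 0, beside 30.1% of 2938 genes, and 0 had an unadjusted p under 0.05. The U2SURP exonic difference was 0.64 ± 0.44 (SE, adjusted p = 0.27), or 0.91 above the median of all genes, and 1.16 ± 0.69 (adjusted p = 0.206) with the scaled pseudocount. An exact two-sided permutation test on the levels themselves, without a pseudocount, gave p = 0.0108 for U2SURP exons (adjusted p = 0.038), beside 32.5% of genes called. The limma value was 0.25 with a pseudocount of 1 and -0.09 with the clusters of lower score dropped. The 6 IP lists and 6 inputs of the permutation test came from 6 extracts, so the lists are not fully independent. SCAF11 exons differed by 0.42 ± 0.42 with the fixed and by 1.52 ± 0.60 with the scaled pseudocount (limma adjusted p = 0.0618), but by -0.25 with a pseudocount of 1 and by -0.87 with the clusters of lower score dropped. The remaining exonic differences were 0.04 ± 0.46 in RPRD1A, 0.00 ± 0.48 in CHERP and -0.24 ± 0.41 in RPRD1B.

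Of 5 genes with enough intronic clusters limma called 0, beside 8.93% of 1545 genes, and CHERP alone had an unadjusted p under 0.05. The CHERP difference was 1.32 ± 0.56 (SE, adjusted p = 0.141), or 1.69 above the median of all genes. With the scaled pseudocount it was 2.41 ± 0.60 (limma adjusted p = 0.0146, beside 7.77% of genes called), 2.09 above its own median of all genes, and the exact permutation test gave p = 0.00216, the smallest it can give with 6 lists against 6 (adjusted p = 0.0301, beside 9.58% of genes called). Calls over all genes turned from 182 higher and 702 lower to 648 higher and 172 lower in exons, and from 11 higher and 127 lower to 102 higher and 18 lower in introns, with the scaled pseudocount. The scaled pseudocount and the permutation tests were chosen after seeing the data. CHERP introns had clusters in every SCAF IP list and in no input, a pattern that by itself fixes the permutation p at its smallest value. They also met the minimum mean through the IP lists alone, and the limma differences in CHERP introns rest on these same clusters. Neither the permutation result nor the limma values, with either pseudocount or without a replicate, therefore add separate support. Other settings brought the limma difference down, to 0.10 (adjusted p = 0.925) with the clusters of lower score dropped, 0.51 (adjusted p = 0.423) with a pseudocount of 1 and 0.92 (adjusted p = 0.327) in lists thinned to one size. It was 1.54 without replicate 1 (adjusted p = 0.0342), 1.03 without replicate 2 (adjusted p = 0.593) and 1.38 without replicate 3 (adjusted p = 0.413). The other intronic differences were -0.35 in U2SURP, -0.49 in RPRD2, -0.52 in RPRD1B and -0.58 in SCAF11, none passing the test, and those of U2SURP, RPRD2 and SCAF11 turned positive with the scaled pseudocount.

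**Figure D4:**
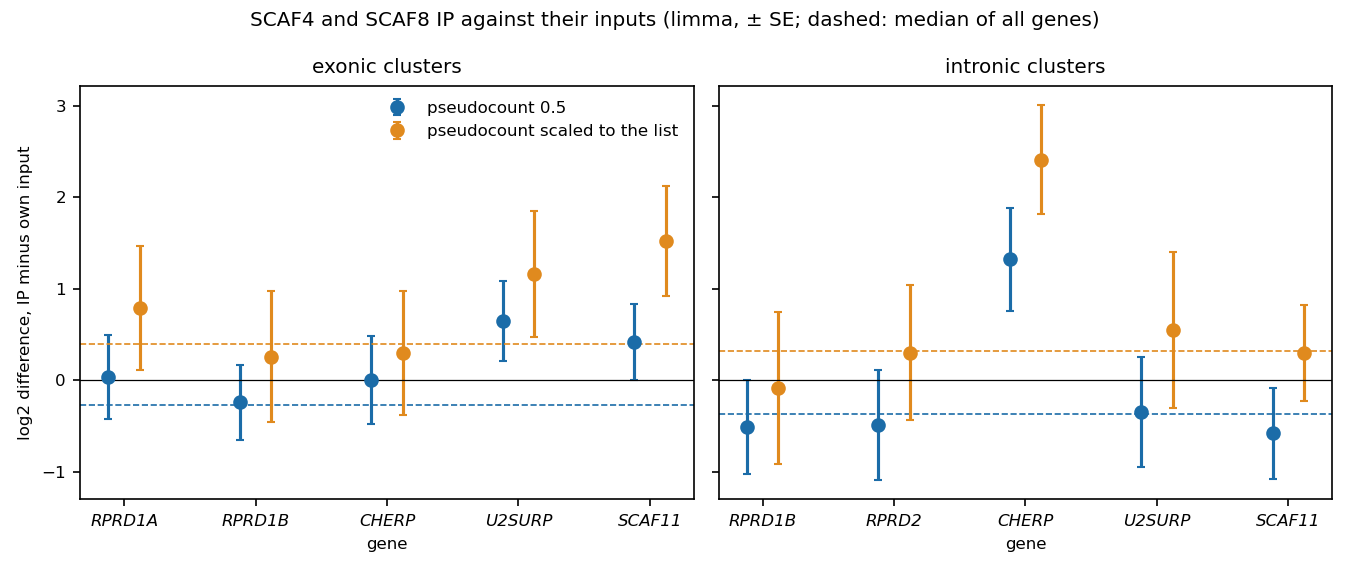
Log2 difference between SCAF IP lists and their own inputs (limma, points, with bars of 1 SE) in exonic clusters (left) and intronic clusters (right), with a pseudocount of 0.5 and with one scaled to the list, and dashed lines for the median of all genes tested. CHERP introns stand above both medians, at 1.32 and 2.41, as do U2SURP exons, at 0.64 and 1.16, and SCAF11 exons, at 0.42 and 1.52. RPRD1A exons (0.31 and 0.39 above) and U2SURP introns (0.02 and 0.23 above) also lie above both. Only the scaled CHERP value passed (limma adjusted p = 0.0146). The U2SURP and SCAF11 exonic values turned negative with the clusters of lower score dropped.

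Filters after those of the study's methods were then applied step by step, to see which regions of these genes would remain as consensus sites. The methods remove input overlap and input-dense genes before asking for agreement of replicates, whereas agreement was counted first here. The study also describes its sites as absent from the untagged control, and overlap with control IP clusters was removed last here. Their minimum of reads and transitions per cluster could not be checked on positions. SCAF4 IP had 56 regions in at least 2 of 3 lists, of which 38 remained after removing overlap with more than 1 input, 11 after removing genes with at least 1 input region per 10 kb, and 10 after removing overlap with control IP clusters. SCAF8 IP went from 48 to 27, 6 and 5. The density step removed every region of RPRD1B, CHERP and U2SURP, whose input densities were 3.16, 2.10 and 1.50 regions per 10 kb. This was no rare outcome, as 51.5% of the 4160 genes tested lay at or above the limit. The 5 regions of CHERP with an input cluster were all exonic, and its intronic regions were removed with the gene.

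The 10 SCAF4 regions lay in RPRD2 (4), SCAF11 (3), PCF11, RPRD1A and SCAF1 (1 each), and the 5 SCAF8 regions in SCAF1 (2), RPRD1A, RPRD2 and SCAF11 (1 each). In PCF11 the region was the 5′UTR of exon 1 (chr11:83157148-83157286). In RPRD1A the SCAF4 region covered exon 4 (chr18:36030807-36030905) and the SCAF8 region its neighbour, exon 3 (chr18:36030928-36031091). RPRD2 intron 1 was the only place with a consensus region of both proteins, at chr1:150365224-150365491 for SCAF4 and chr1:150365347-150365526 for SCAF8, the latter in all 3 SCAF8 lists. The other RPRD2 regions, of SCAF4, were in exon 1 (chr1:150364703-150365017), intron 1 (chr1:150406040-150406150) and exon 6 (chr1:150444198-150444371). SCAF1 had a SCAF4 region in exon 10 (chr19:49657763-49657925) and SCAF8 regions in exon 6 (chr19:49646706-49646841) and exon 7 (chr19:49652625-49652922). SCAF11 had SCAF4 regions in exon 1 (chr12:45990291-45990508) and intron 1 (chr12:45975096-45975250 and chr12:45974510-45974793) and a SCAF8 region in intron 6 (chr12:45943895-45943957).

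**Figure D5:**
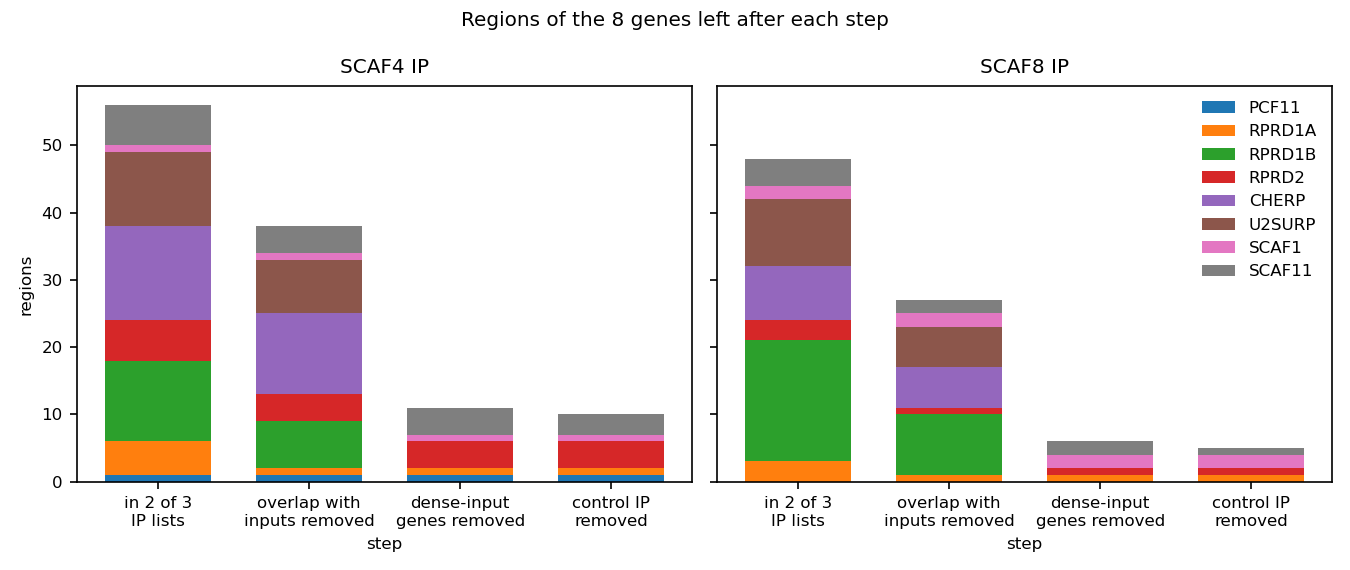
Number of regions of the 8 genes left after each filter step, for SCAF4 IP (left) and SCAF8 IP (right), coloured by gene. The step on dense inputs takes RPRD1B, CHERP and U2SURP to 0, and 10 SCAF4 and 5 SCAF8 regions are left at the end.

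The motif forms were counted on the transcribed strand in 100 bases around each region's midpoint. Among the 61 exonic regions with a SCAF IP cluster, CGG or CGA was present in 46 (75.4%), CAG with a C or a G on each side in 24 (39.3%) and CTCC or CACC in 33 (54.1%). Over all 40757 such regions of the genome the shares were 70.1%, 45.8% and 52.0%. The 78 intronic regions held them in 43.6%, 43.6% and 35.9%, beside 56.5%, 39.7% and 43.1% of 29832. Among 17 intronic regions found in inputs without SCAF IP the shares were 29.4%, 23.5% and 47.1%, beside 31.4%, 23.7% and 28.3% of 3865. A match is a description of these letters and not a binding site.

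A list of 12 genes of related function, covering CTD phosphatases and proline isomerase, CTD readers, the PCF11 partner CLP1 and the CHERP and U2SURP partner RBM17, was counted in the same way. Of these 8 could be tested. Limma called 0 of 8 against the inputs of either protein and 0 of 8 between the proteins, with 1, 1 and 0 at an unadjusted p under 0.05. The counts of single genes given next are raw, from SCAF IP lists of 192335 clusters together and inputs of 72277. RPAP2, the phosphatase recruited by RPRD1A and RPRD1B, had 12 SCAF IP and 9 input clusters, and SSU72, another CTD phosphatase, had 199 and 130. Relative to these totals, both had fewer clusters in IP than in inputs. RBM17 had 45 SCAF IP and 15 input clusters, while CTDP1 had 34 and 2, and RECQL5, a helicase that binds RNAPII, had 29 and 1. CLP1 had no cluster in any list. In exons 1 of 7 was called with the fixed pseudocount, beside 30.1% of 2938 genes, of which 23.9% were called lower and 6.19% higher. It was CTDSP2 at -1.08 (limma adjusted p = 0.0498), and the direction of exonic calls over all genes depended on the pseudocount. In introns 0 of 4 were called, beside 8.93% of 1545 genes, with 0 at an unadjusted p under 0.05. Against the control IP, CTDSP2 was lower for SCAF4 (-2.13, limma adjusted p = 0.0152) and RPAP2 lower for SCAF8 (-2.24, limma adjusted p = 0.0457). These calls stand beside 16.7% and 16% of all genes, in the comparison whose direction depended on the pseudocount.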

How the data were processed

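PAR-CLIP libraries (36, as 18 lists) came per the labels from 3 replicates of each group. Reads were demultiplexed with bcl2fastq 1.8, trimmed with cutadapt and Trim Galore and aligned to GRCh38 with Bowtie2 2.2.9, and duplicates were removed with Picard, per the submitters' processing notes and the study's methods. The authors called clusters with PARalyzer after joining the soluble and chromatin libraries. The deposited files give each cluster's position and a score from 0.501 to 1, which the files do not name and which was used only to set a stricter list. Read depth per cluster is unknown. Small RNA inserts were sequenced, and a read fitting several places could be reported at 1 of them.

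Clusters were counted by midpoint against GENCODE 44, with exons from the isoform of greatest summed exon length, and merged into regions by overlap. Counts were fitted with limma 3.58.1 (R 4.3.3, trend) on all 18 lists and tested on simulated counts with known changes. Called means an adjusted p below 0.05. Sequences came from GRCh38 with pysam 0.24.0, and 0 columns of no known sample were used. The members, related genes and motif forms were chosen with earlier results of these data known. All 8 members were named whatever their values, with regions in at least 5 SCAF IP lists or 5 inputs and the consensus regions. A further SCAF1 region and the best PCF11 region were named after their values were seen. Input and IP of a number share an extract, and their deviations from the group means correlated at 0.0653 to 0.362 (9 pairs), against -0.279 to 0.15 for different numbers (18 pairs). Nothing in the labels says whether replicates were separate cultures, so p-values measure the spread between these lists. Alternatives were pseudocounts, minimum means, the score, thinning to 4567 clusters, isoforms, the replicate block and leaving out each replicate.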

Additional observations from a re-analysis of the deposited data

Results flagged for a closer look

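Clusters on the strand opposite to a gene were outside the comparisons. PCF11 had 3 such clusters in SCAF IP lists and none in control IP or inputs. All 3 overlapped at chr11:83174140-83174249 on the minus strand, in SCAF4 IP replicates 2 and 3 and SCAF8 IP replicate 2, where the annotation has no gene on that strand. CHERP had 1, in SCAF4 IP replicate 2, within C19orf44. U2SURP had 1, in SCAF4 IP replicate 2, within ENSG00000268129. The SCAF IP lists were also the longest lists, and clusters on the opposite strand were not recounted in lists thinned to one size.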

How the results depend on the processing

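The number of the 8 genes called, 0 in each comparison, changed under 9 of 77 alternatives. For SCAF4 against control IP it was 1 with a pseudocount of 1 (SCAF1, lower) and 1 with a minimum mean of 0.5 (PCF11, lower). Neither gene had a cluster in any control IP list. These lower values therefore come from the pseudocount in the shorter control lists and not from fewer clusters in SCAF4 IP. For SCAF8 against control IP the number called was 1 with a pseudocount of 1 (SCAF11) and 2 after dropping clusters below the median score (RPRD2 and SCAF11). It was 0 to 1 leaving out replicates. Most calls over all genes in these settings were lower. With a pseudocount of 1 they were 2249 of 4160 genes for SCAF4 (2249 lower) and 2319 for SCAF8 (2315 lower). With a minimum mean of 0.5 they were 1575 of 6445 for SCAF4 (1570 lower). For SCAF8 they were 1444 at the median score (1442 lower) and 1631 without replicate 1 (1597 lower). For exonic clusters the number of the 8 genes called was 1 by exact permutation (U2SURP). For intronic clusters it was 1 by exact permutation, 1 with the scaled pseudocount and 0 to 1 leaving out replicates (CHERP). With the replicate number as a block, no member was called and CHERP introns came to a limma adjusted p of 0.053. Genes called over all moved from 3 to 15 for SCAF8 against inputs and from 9 to 42 for SCAF4 against SCAF8. A replicate number was shared by all cell lines, so this block did not pair each IP with the input of its own extract. Counts over all genes ran from 0 to 785, 0 to 159, 0 to 102, 0 to 2249 and 0 to 2319 in the 5 gene-level comparisons (451, 3, 9, 694 and 664 as reported), from 54 to 1222 for exons (884 as reported) and from 0 to 369 for introns (138). Thinning was not run against control IP, whose lists were too short. Consensus regions of SCAF4 (10) came to 0 when all 3 lists were required, 0 to 9 leaving out replicates, 33 without the density step and 5 at the median score, and those of SCAF8 (5) to 1, 1 to 4, 21 and 1, and 3 when any input overlap was removed. Of 119 values of single genes 95 kept direction and call, 4 became called and 20 reversed, the cause not tested. Exonic values reversed in U2SURP (-0.0886 at the median score), SCAF11 (-0.252 with a pseudocount of 1, -0.865 at the median score), RPRD1A (-0.688 to 0.732 leaving out replicates, -0.451 with a pseudocount of 1, -0.459 at the median score), CHERP (-0.0784 to 0.152, -0.239 and -0.0886) and RPRD1B (-0.527 to 0.09 leaving out replicates, 0.257 with the scaled pseudocount). Intronic values reversed in RPRD2 (0.123 thinned, 0.3 scaled), U2SURP (-0.642 to 0.0349 leaving out replicates, 0.0506 with all isoforms, 0.546 scaled) and SCAF11 (0.792 thinned, 0.3 scaled, 0.143 per 10000 by permutation).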
